A study of Drosophila melanogaster with 4 samples.

Results

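Chromosome arm 3R, the right arm of the third chromosome of Drosophila melanogaster, carried 1210 of the 5331 regions called enriched for histone H3 trimethylated at lysine 79 (H3K79me3), or 22.7% of them. Members were all entries of the authors' series-wide region list that lie on 3R and are named as enriched, so no measured value beyond the authors' own call chose them. Chromatin immunoprecipitation with sequencing (ChIP-seq) was run on 2 ChIP and 2 input libraries, all from wild-type larvae of the strain Oregon-R-modENCODE at the third instar, with a rabbit polyclonal antibody against H3K79me3. All samples share strain, genotype and stage, and no treatment or altered genotype is given. Homogenised larval tissue mixes many cell types, and a region list cannot tell a mark present in few cells from a weak mark in many. Nothing in the labels tells if separate batches of larvae were used for each replicate, and the spread between replicates may therefore be technical. Values of the input libraries were not analysed here, and the region lists give no read depth.

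Lysine 79 lies in the globular core of histone H3, on the face of the nucleosome, rather than in its tail. Its methylation is carried out by the Dot1 enzymes, which lack the SET domain found in most lysine methyltransferases; the fly gene is called grappa. The mark is generally found over the bodies of transcribed genes, in active chromatin rather than in heterochromatin. Arm 3R carries both Hox gene complexes of the fly. Genes under the regions, and their sequences, were not analysed here: the regions are placed on FlyBase release 5, and a gene table was used for no region because it follows release 6.

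H3K79me3 covered similar shares of 3R in both replicates, mostly in regions of a few kb. Replicate 1 held 1197 regions on the arm over 7.13 Mb and replicate 2 held 1081 over 6.84 Mb, out of an arm of 27.9 Mb. The covered share was 25.6% in replicate 1 and 24.5% in replicate 2, a mean of 25.03 ± 0.753% (SD, n = 2). Replicate 2 thus held fewer regions and a little less length. Region widths were similar in both, with a median of 3775 bp in replicate 1 and 3944 bp in replicate 2 and interquartile ranges of 2141 to 7266 bp and 2293 to 7903 bp. In the series-wide list the regions covered 7.79 Mb, or 27.9% of the arm, with a median width of 3725 bp and a range from 1001 to 67227 bp. The authors' score, which has no stated unit and is read here within 1 list at a time, ran on 3R from 0.104 to 2.67 in replicate 1 (median 0.916), from 0.0860 to 2.29 in replicate 2 (median 0.871) and from 0.0223 to 2.39 in the series-wide list (median 0.721).

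Set beside the other large arms (2L, 2R, 3L and X), 3R was covered slightly more than their mean. Its share exceeded that mean by 1.15 percentage points in replicate 1 and by 0.858 in replicate 2 (mean 1.01 ± 0.209, SD, n = 2), and it ranked 2 of 5 in each, below 2R. By number of regions there was no steady difference: 3R held 42.9 regions per Mb against 42.4 on the other arms in replicate 1, and 38.7 against 38.9 in replicate 2. Its median width exceeded the mean of the other arms by 151 bp and 126 bp, and its median score lay below theirs by a difference of -0.0383 in replicate 1 and -0.0188 in replicate 2, although 3R ranked 3 of 5 by median score in each, above 2L and 3L. No test across samples was made with 2 libraries, and none of these differences is called.

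A small number of wide regions held much of the marked length. Of the 1210 series-wide regions, 279 were narrower than 2 kb and held 5.46% of the summed region length. Another 450 were 2 to 5 kb wide and held 18.4%. The 64 regions of at least 20 kb made up 5.29% of regions and 24.3% of length. The replicates held 47 and 46 regions of this size, with 18.8% and 19.2% of their length. Wider regions had higher scores: the median score was 0.320 under 2 kb, 0.620 at 2 to 5 kb, 1.17 at 5 to 10 kb, 1.38 at 10 to 20 kb and 1.48 at 20 kb or more. Across regions, Spearman's rho between score and width was 0.811 in replicate 1 (n = 1197), 0.814 in replicate 2 (n = 1081) and 0.818 in the series-wide list (n = 1210). These are descriptions, since regions of 1 list share a library and are not independent.

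**Figure D1:**
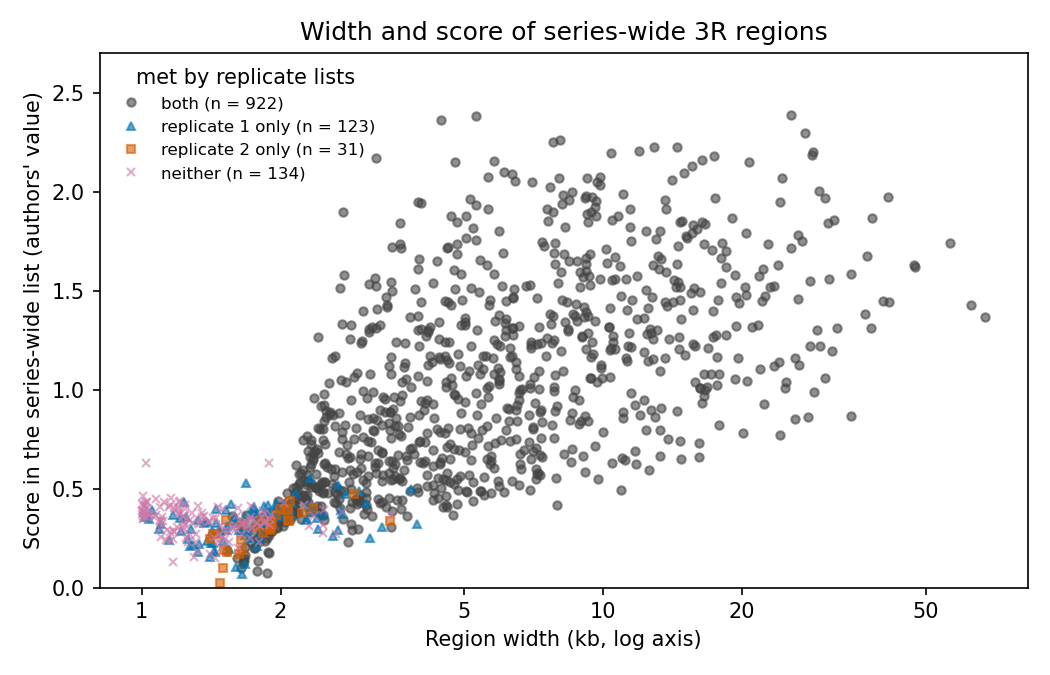
Width of each of the 1210 series-wide regions on 3R (kb, log axis) against its score in that list, with symbols for the replicate lists that hold an overlapping region. Regions met by 1 replicate or by neither cluster at the lower left, and every region of at least 5 kb was met by both replicates.

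Each series-wide region was checked against the 3R entries of both replicate lists. A region counted as met when at least 1 bp overlapped. Both replicates met 922 of the 1210 regions, or 76.2% (95% Wilson interval 73.7 to 78.5%, counting error only), where 75.0% of all regions in the series-wide list were met by both. Neither replicate met 134 regions, or 11.1% (9.43 to 13.0%), where the share over all sequences was 12.6%. These shares are near those of the whole list and say nothing particular to 3R. On the other 4 large arms together the shares were 74.9% (73.5 to 76.2%) and 13.1% (12.1 to 14.2%), intervals that overlap those of 3R. Replicate 1 alone met 123 regions (10.2%) and replicate 2 alone met 31 (2.56%), where the shares over all sequences were 8.87% and 3.51%. Unmet regions were narrow: in summed length, regions met by both held 93.9% and regions met by neither held 2.46%, counting each region whole. Counted base by base, 84.6% of the series-wide length was covered in both replicates, 9.70% in 1 and 5.70% in neither.

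Overlap with the replicates went with width and score. It is not independent support, because the series-wide list belongs to the same replicate set. An overlap of 1 bp is also easier to reach for a wide region than for a narrow one. All 481 regions of at least 5 kb were met by both replicates, as were 398 of the 450 regions of 2 to 5 kb, but only 43 of the 279 narrower than 2 kb (15.4%, Wilson interval 11.6 to 20.1%). By score, all 605 regions at or above the arm's median were met by both. At or below the lower quartile 76 of 303 were. The 134 regions met by neither had a median width of 1310 bp, and 66 of them fell short of 1301 bp, the least width in either replicate list. None of the 154 regions met by a single replicate scored above the arm's median. The 5 highest scores among regions met by neither were 0.630 from 11130662 to 11131684, 0.630 from 27713664 to 27715550, 0.464 from 18037930 to 18038936, 0.452 from 17712842 to 17713998 and 0.449 from 19903930 to 19905004. All 5 lay below the arm's median of 0.721 and were at most 1.89 kb wide.

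Read from each replicate against the other, most regions had a counterpart. On 3R, 1061 of the 1197 regions of replicate 1 met a region of replicate 2 (88.6%, Wilson interval 86.7 to 90.3%), and 1043 of the 1081 of replicate 2 met one of replicate 1 (96.5%, 95.2 to 97.4%). The 136 regions of replicate 1 without a counterpart had a median width of 1588 bp and a median score of 0.498, against 4349 bp and 1.02 for those with one. In replicate 2 the 38 without a counterpart had a median width of 1574 bp and a median score of 0.457. Unmatched regions were thus narrow and low-scoring in both lists. Shares over all sequences were not computed for this comparison, so these counts are not read as particular to 3R. The replicates shared 6.59 Mb of the arm, which was 92.4% of the length of replicate 1 and 96.4% of that of replicate 2, with a Jaccard index (shared length over the length covered by either) of 0.892. Only 4 regions of replicate 1 and none of replicate 2 fell outside the series-wide list, which belongs to the same replicate set and is therefore not treated as an independent check.

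Where each replicate held a region undivided, its edges were placed closely. Compared were 755 of the 922 series-wide regions met by both replicates, each with exactly 1 counterpart per replicate, not shared among them. Regions divided in a replicate were left out. The left edge differed between replicates by a median of 97 bp and the right edge by 88 bp. The upper decile of these shifts was 520 bp on the left and 433 bp on the right. The largest shift was 4068 bp, so single edges could still move by the width of a median region. Within these regions the order by score was also alike: scores in replicate 1 and replicate 2 gave a Spearman's rho of 0.968 and widths 0.974 (n = 755 regions, which share their 2 libraries). Expressed as a percentile of the whole list, a region's score differed between replicates by a median of 4.81 percentile points and at most 35.4. That largest shift belonged to the region from 4386076 to 4389142, 3067 bp wide, which stood at percentile 40.5 in replicate 1 and 5.11 in replicate 2.

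**Figure D2:**
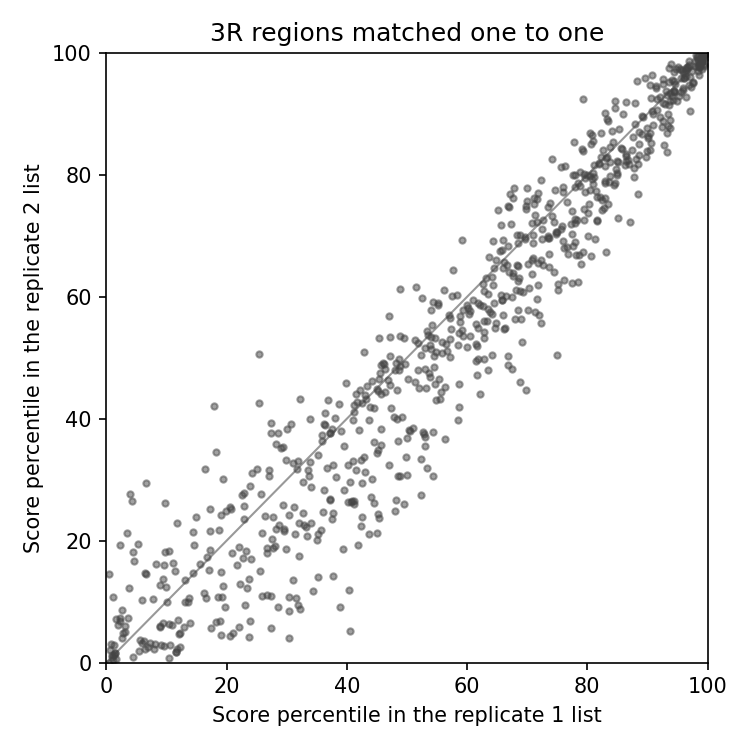
Score percentile of 755 regions on 3R in the replicate 1 list (x axis) and the replicate 2 list (y axis), each percentile taken over all regions of that list, with the line of equal percentiles. The points follow the line, with 494 of the 755 below it, that is at a lower percentile in replicate 2. A percentile depends on what else its list holds. On 3R, 136 regions of replicate 1 and 38 of replicate 2 had no counterpart, with median scores of 0.498 and 0.457. Whether this accounts for the shift was not tested.

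Counted per region, wide regions were more often divided in a replicate. A wide region has more length in which a gap can fall, and no rate per length was computed. Replicate 1 met 126 series-wide regions with more than 1 piece and replicate 2 met 107, with up to 4 and 5 pieces. Among regions of at least 20 kb, 27 of 64 were divided in replicate 1 and 26 of 64 in replicate 2, against 12 and 10 of the 450 regions of 2 to 5 kb. Between these sizes, 40 and 39 of 263 were divided at 5 to 10 kb, and 46 and 32 of 154 at 10 to 20 kb. Most breaks were short, but some spanned several kb. Replicate 1 had 156 gaps that lay inside a single series-wide region, with a median of 187 bp and a maximum of 4264 bp. Replicate 2 had 132, with a median of 297 bp and a maximum of 3333 bp. Of all gaps of replicate 1 on the arm, 94 were wholly covered in replicate 2, and 75 gaps of replicate 2 were wholly covered in replicate 1.

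The highest-scoring regions of 3R were 4.44 to 28.5 kb wide, and each was a single region in both replicates. The region from 20048758 to 20074200, 25.4 kb wide, had the highest score, 2.39. It scored 2.52 in replicate 1 and 2.28 in replicate 2, rank 2 on the arm in each. The next was the region from 5630396 to 5635686, only 5.29 kb wide, with a series-wide score of 2.38. It scored 2.51 in replicate 1 (rank 3) and 2.29 in replicate 2 (rank 1). Close by, from 5459662 to 5464102, a region of 4.44 kb scored 2.36. It was the highest on the arm in replicate 1, at 2.67, and ranked 9 in replicate 2, at 2.11. The other 7 of the 10 highest scores began at 2243748, 5952986, 12067854, 25037614, 6212812, 10470258 and 27417946, with scores from 2.20 to 2.29 and widths from 7.79 to 28.5 kb. All 10 were covered to at least 96.1% in replicate 1 and 97.2% in replicate 2. In each replicate 7 of the 10 were again among its 10 highest on the arm, and the lowest rank was 17 in replicate 1 and 24 in replicate 2.

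The widest regions were a different set: no region was among both the 10 widest and the 10 highest scores. The widest ran from 9794858 to 9862084, 67.2 kb, with a score of 1.37. Each replicate covered it in 3 pieces, to 98.5% in replicate 1 and 99.7% in replicate 2, the widest piece being 42.5 kb in both. The second, from 10554458 to 10617186 (62.7 kb, score 1.43), came in 3 pieces in replicate 1 and 2 in replicate 2. The third, from 10251794 to 10308094 (56.3 kb, score 1.74), was a single region of 54.1 kb in replicate 2 and 2 regions in replicate 1, the wider of 53.7 kb. The region from 7459792 to 7507110 (47.3 kb, score 1.62) was the reverse case, a single region of 47.1 kb in replicate 1 and 4 pieces in replicate 2. Among the 10 widest, that from 26102464 to 26143920 (41.5 kb) had the highest score, 1.98, and was a single region in both replicates, 41.4 kb and 41.3 kb. It was followed after a short break by another of the 10, from 26149644 to 26187644 (38.0 kb, score 1.31). The other 4 of the 10 widest began at 24885510, 14901876, 5412024 and 25598122 and were 38.2 to 47.0 kb wide. All 10 widest scored above 1.27, the upper quartile of the arm, and each was covered to at least 97.6% in replicate 1 and 94.5% in replicate 2.

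Regions on 3R were unevenly spaced, close together in some stretches and far apart in others. The median gap between neighbours was 3420 bp in replicate 1 and 4313 bp in replicate 2, whereas the mean gap was 17.4 kb and 19.5 kb. In replicate 1, 327 of 1196 gaps were shorter than 1 kb, and in replicate 2 this held for 248 of 1079. At the other end, 50 gaps of at least 100 kb held 38.1% of the length between regions in replicate 1, and 52 such gaps held 40.1% in replicate 2. Few long gaps thus made up a large part of the sequence between called regions. When neighbours closer than 5 kb were joined, the series-wide regions formed 535 chains, of which 244 were single regions. The longest chain ran from 10494508 to 10624168, spanned 130 kb with 6 regions and was covered to 90.6% in each replicate. The next spanned 110 kb from 24852298 to 24962668 with 8 regions, covered to 81.4% in replicate 1 and 80.4% in replicate 2. Another, of 107 kb, ran from 6339632 to 6446600 with 11 regions. Neighbours resembled each other little in score, with a rho of 0.130 over 1209 neighbouring pairs in the series-wide list, too weak to call a pattern.

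**Figure D3:**
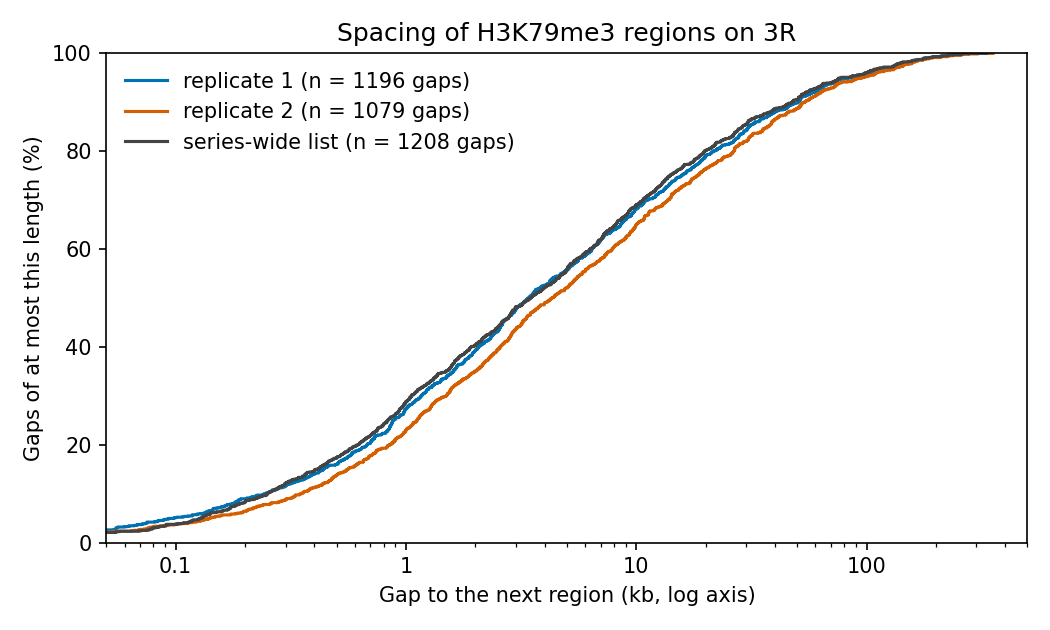
Cumulative share of gaps between neighbouring regions on 3R (y axis, %) by gap length (x axis, kb, log axis) in each replicate list and in the series-wide list. The curve of replicate 2 lies mostly to the right of that of replicate 1, with median gaps of 4313 and 3420 bp.

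The longest stretches without a called region were found at the same places in both replicates. Absence of a call is not shown to be absence of the mark, since the threshold and the read depth are unknown. The longest, from 23812557 to 24146343, measured 334 kb in the series-wide list, 335 kb in replicate 1 and 356 kb in replicate 2. Its right border was a region of 23.9 kb with a score of 1.63, met by both replicates. Its left border was a region of 2.29 kb and score 0.415 that replicate 2 did not hold. The second, from 6719901 to 6983827, measured 264 kb in replicate 1 and 305 kb in replicate 2. There the right border, a region of 1.02 kb, was met by replicate 1 alone. The third, from 23117841 to 23376475, measured 259 kb in every list and lay between 2 regions of 9.17 and 9.19 kb with scores of 1.98 and 1.60. The other 2 of the 5 longest ran from 18614017 to 18870287 (256 kb) and from 8546091 to 8784177 (238 kb). No replicate region lay wholly inside any of the 5, and replicate lengths differed by over 5 kb only where a border region was missing from replicate 2.

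Along the arm, coverage varied far more between places than between replicates. Over 28 windows of 1 Mb (the last one shorter), the replicates' mean lay between 10.6 and 48.5%, with an SD between windows of 8.01 percentage points. Within windows the SD over both replicates had a median of 0.706 and a maximum of 1.82 percentage points. Replicate 2 was lower in 26 of the 28 windows, by at most 2.58 percentage points. The order of windows was nearly the same, no window moving by more than 4 ranks. Coverage of a window and the median score of its regions were nearly unrelated in order, with a rho of 0.0175 in replicate 1 and 0.0575 in replicate 2 over 28 windows of 1 library each.

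**Figure D4:**
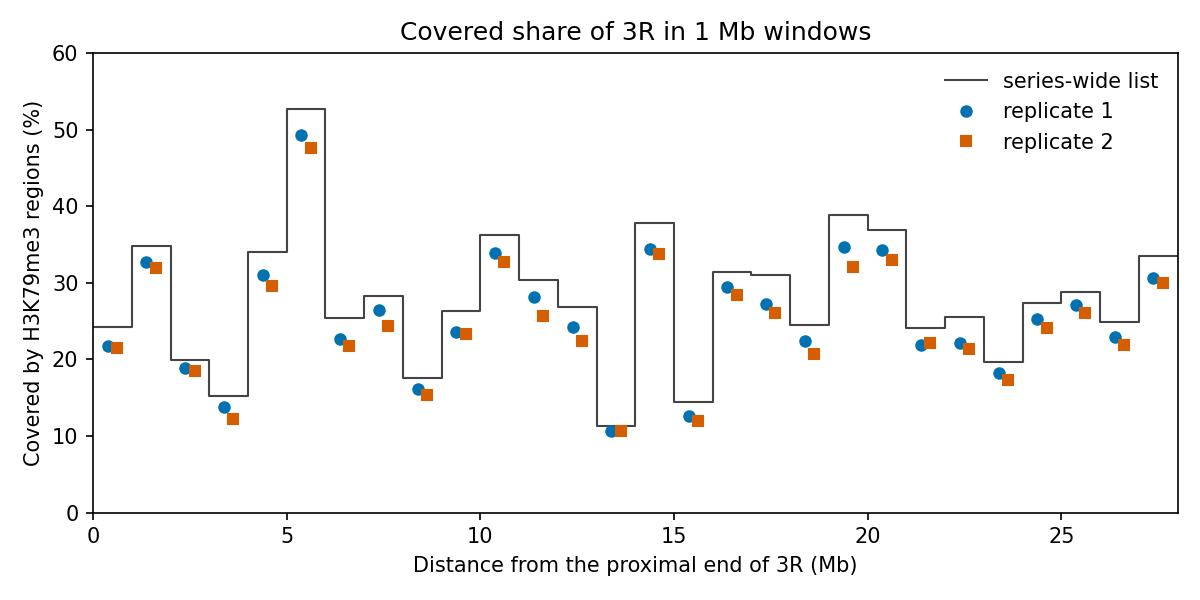
Share of each 1 Mb window of 3R covered by H3K79me3 regions (y axis, %) by distance from the proximal end (x axis, Mb), with points for each replicate and a stepped line for the series-wide list. The points of both replicates lie together in every window, between 10.6 and 49.3%, and the window from 5 to 6 Mb stands highest.

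In the densest window, from 5000001 to 6000000, regions covered 49.3% (replicate 1) and 47.6% (replicate 2). It held 63 series-wide regions, of which 52 were met by both replicates and 9 were at least 20 kb wide, the most of any window. Of all series-wide regions 75.0% were met by both, and over the 28 windows of 3R this share ran from 62.9 to 89.5%. Of the 63, 24 scored at or above the arm's upper quartile. They included 3 of the 10 highest scores, from 5630396, 5459662 and 5952986. By the mean of the replicates, the next densest windows were from 14000001 to 15000000 (34.4 and 33.8%) and from 20000001 to 21000000 (34.2 and 32.9%). The last of these held the arm's highest score. The window from 19000001 to 20000000 came second instead in replicate 1 (34.7%) and the series-wide list (38.9%), and was at 32.1% in replicate 2.

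In the sparsest window, from 13000001 to 14000000, they covered 10.6% (replicate 1) and 10.7% (replicate 2). It held 19 series-wide regions, 17 of them met by both replicates (75.0% over all series-wide regions), and none of 20 kb or more. Its few regions did not score low: the median was 0.884, above the arm's 0.721, and 5 of the 19 reached the upper quartile. The strongest, from 13499810 to 13510226, scored 2.20, and the next, from 13529800 to 13544724, scored 2.09. The replicates had their highest Jaccard index there, 0.941. The other sparse windows were from 15000001 to 16000000 (12.6 and 11.9%), which had the lowest Jaccard index at 0.841, and from 3000001 to 4000000 (13.8 and 12.2%). In these, 63.6 and 62.9% of series-wide regions were met by both replicates, the 2 lowest shares of the 28 windows.

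At the low-coordinate end of 3R, which lies next to the centromere, the mark was present from the first bases onward. The first region began at base 8 in replicate 1, base 1 in replicate 2 and base 2 in the series-wide list, and ended at 10530, 10529 and 10586. It was 10.6 kb wide in the series-wide list, with a score of 1.56 there, 1.58 in replicate 1 and 1.55 in replicate 2. The next regions began at 39480, 45946, 50118 and 53028 in the series-wide list, with scores of 0.357, 1.47, 0.348 and 0.629. Only that at 39480 was missing from replicate 2. Over the first 250 kb the share was 26.0% in replicate 1 and 24.1% in replicate 2, a level like that of the whole arm. Coverage was 51.6 and 51.9% between 1 and 1.25 Mb and 9.23 and 8.99% between 1.75 and 2 Mb, so it did not climb steadily with distance from the centromere.

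The proximal 2 Mb of 3R were covered to 26.9 ± 0.349% (SD, n = 2), 1.08 ± 0.0185 times the share of the whole arm. The side of the arm's share depended on the stretch: over the first 1 Mb the ratio was 0.863 ± 0.0196 and over the first 3 Mb 0.966 ± 0.0157 (SD, n = 2), below 1 in each replicate. Over 2 Mb the same ratio was 0.455 ± 0.0213 on 2L, 0.246 ± 0.0310 on 2R, 0.130 ± 0.0210 on 3L and 0.335 ± 0.00159 on X (SD, n = 2 each). Ratios on 3R, 1.06 and 1.09, lay above every value of the other arms in both replicates, and this also held for stretches of 1 and 3 Mb. In the first 250 kb the mean of the replicates was 25.04 ± 1.39% on 3R, 6.05% on X, 2.55% on 2L, 2.50% on 2R and 0.365% on 3L. Of an arm's covered length, 5% was reached 1.30 and 1.22 Mb from the proximal end on 3R. On the other arms this point lay further out, at 2.21 and 2.13 Mb on 2L and 2.64 and 2.59 Mb on 2R. It lay at 3.12 and 3.13 Mb on 3L and 2.68 and 2.69 Mb on X. For 10% of covered length the distances were 2.97 and 2.93 Mb on 3R, and 3.56 and 3.56 Mb on 2L. They were 3.59 and 3.58 Mb on 2R, 4.12 and 4.15 Mb on 3L, and 3.56 and 3.58 Mb on X. The arms differ in length, so these distances are a description. No test of these differences between arms was made, since each arm exists once and there are 2 libraries. How far each arm's sequence reaches into heterochromatin, and how much of it could be mapped uniquely, were not analysed here.

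**Figure D5:**
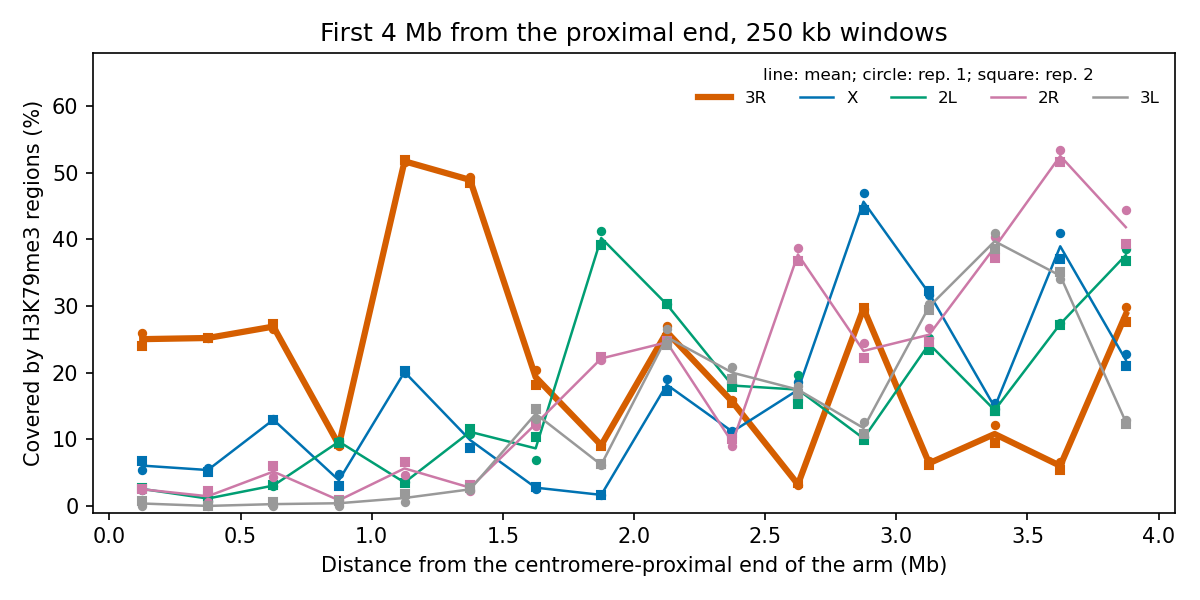
Covered share (y axis, %) in 250 kb windows over the first 4 Mb from the centromere-proximal end of each large arm (x axis, Mb), with lines for the mean of the replicates, circles for replicate 1 and squares for replicate 2. Arm 3R begins at 24.1 to 26.0%, while the other 4 arms stay below 10% in the first 500 kb.

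The proximal 2 Mb held 93 series-wide regions, of which 78 were met by both replicates (83.9%, against 75.6% on the rest of the arm). Their median width was 4557 bp against 3703 bp on the rest, and their median score 0.949 against 0.693. In the replicate lists the contrast in score was smaller. There the median was 1.08 against 0.916 on the whole arm in replicate 1, and 0.916 against 0.871 in replicate 2. Series-wide median scores of single 1 Mb windows ran from 0.393 to 1.16 along the arm. The first 1 Mb alone had narrower regions, with a median width of 3202 bp in replicate 1 and 3082 bp in replicate 2, below the medians of the arm. By contrast the scaffold 3RHet, which this release keeps apart as heterochromatin of the arm, had shares of 0.131% (replicate 1) and 0.217% (replicate 2), with 2 and 3 regions of at most 2169 bp. The share of 3RHet as a whole was thus far below that of the first 250 kb of 3R in both replicates. Where its regions lie along the scaffold was not analysed here. The distance between the 3RHet and 3R sequences is not known from the lists.

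At the distal, telomere-side end, the mark also reached close to the end of the sequence. The last region ran from 27891334 to 27894610 with a score of 1.33, and its counterparts scored 1.53 in replicate 1 and 1.18 in replicate 2. Before it lay a region from 27875972 to 27880654 with a score of 1.43, and before that a pair from 27784584 to 27797828 and from 27798196 to 27812044, of 13.2 and 13.8 kb. The fifth from the end began at 27767274, 2.18 kb wide with a score of 0.491. The last 2 Mb were covered to 25.8 ± 0.666% (SD, n = 2), 1.03 times the share of the arm. The same stretch was covered to 32.9% on 2L, 29.7% on 2R, 31.2% on 3L and 29.3% on X, all of them above the proximal 2 Mb of the same arm. On 3R the distal 2 Mb were not above the proximal 2 Mb, but the last 1 Mb (27.5%) and the last 3 Mb (27.6%) were above the first 1 Mb (21.6%) and the first 3 Mb (24.2%), in both replicates.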

How the data were processed

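Per the labels, reads came from 2 ChIP and 2 input libraries. The submitters' processing notes name Bowtie 0.12.7, and coordinates are on FlyBase release 5, 1-based, per the file headers. Not given in the sources used here are the region caller, its threshold, the use of the input and the way the series-wide list was made. The authors deposited a score per region without a unit. One deposited entry on 3R named as depleted was kept apart. Depth is unknown, because the lists hold no read counts.

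Overlapping or touching regions were joined before lengths and gaps were measured, and shares refer to the arm lengths given in the file headers. Values are given per replicate, with mean ± SD over 2; no test was made, and Wilson intervals cover counting error only. Members and lists were chosen with earlier results of these data known. Regions named are the 10 highest scores, the 10 widest, the 5 nearest each end, those beside the 5 longest gaps, the 5 highest scores met by neither replicate, and those of the densest and sparsest 1 Mb windows, which are summarised. The region with the largest percentile shift, the chains and the 250 kb windows were chosen after values were seen. Alternatives were the top 50% by score, merging below 500 bp, each replicate alone, the series-wide list, stretches of 1 and 3 Mb, and other overlap rules. Tools were scipy 1.17.1, pandas 2.3.3, numpy 2.4.6 and matplotlib 3.10.9 under Python 3.11.15. The interval code was tested on 20 simulated list pairs and equalled a base-by-base count in 20.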

Additional observations from a re-analysis of the deposited data

How the results depend on the processing

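No paired analysis was possible because only the ChIP group has region lists. Leaving out a replicate gave 1081 to 1197 regions on 3R, a covered share of 24.5 to 25.6%, a difference from the other large arms of 0.858 to 1.15 points, a median width of 3775 to 3944 bp, a median score of 0.871 to 0.916, a median gap of 3420 to 4313 bp and a proximal 2 Mb share of 26.7 to 27.2%. In the top 50% of each list by score the means were 556 regions, a covered share of 19.03%, a difference of 0.634 points, a width of 7325 bp, a score of 1.38, a gap of 13152 bp, a proximal share of 21.04% and a Jaccard index of 0.884. Of the series-wide regions in the top 50% by score, 100% were met by both replicates and 0% by neither, set against the full replicate lists. With regions closer than 500 bp merged, the median width was 4464 bp, the score 0.935, the gap 6112 bp and the Jaccard index 0.894. In the series-wide list the covered share was 27.9%, the width 3725 bp, the score 0.721 and the proximal share 29.5%. A proximal stretch of 1 Mb was covered to 21.6% and one of 3 Mb to 24.2%. Among regions at least as wide as the narrowest replicate region, 81.7% were met by both and 6.02% by neither. The Spearman correlation of score and width was 0.811 and 0.814 in the replicate lists. The difference in covered share between 3R and the other large arms kept its sign, and 3R ranked 2 of 5 by covered share, in each list with all regions, with the top 50% and with merging; by regions per Mb the sign differed between replicates. Depth is unknown.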

Other observations

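The series-wide list names 1 entry on 3R as depleted, from 9535424 to 9537004, 1581 bp wide with a score of -0.0675. No enriched region of any list overlapped it. The nearest lay 3734 bp away in the series-wide list, 3746 bp in replicate 1 and 3809 bp in replicate 2, and scored 1.19, 1.46 and 1.28 there. Neither replicate names a depleted entry on 3R.

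All 1210 starts and all 1210 ends of series-wide regions on 3R are even numbers, whereas 566 of 1197 starts in replicate 1 and 516 of 1081 in replicate 2 are. The replicate lists therefore give edges to single bases and the series-wide list to steps of 2 bp.

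Of the 755 regions on 3R matched singly in both replicates, 468 were narrower in replicate 2, by a median width difference of -70 bp over all 755. Series-wide regions met by replicate 1 alone outnumbered those met by replicate 2 alone in 25 of 28 windows, and the reverse held in 1. At least 1 region met by neither replicate lay in 27 of the 28 windows, at most 15 in a window, from 19000001 to 20000000.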
